A study of Mus musculus with 2 samples.

Results

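GABAergic neurons, which make the inhibitory transmitter GABA, were examined in a single cell RNA sequencing library of explants taken around the mouse embryonic septum. A cell was chosen by its counts of transcript molecules, each tagged with a unique molecular identifier (UMI). Mitochondrial genes had to make up under 4% of its UMIs. The UMIs of 6 neuronal genes (*Tubb3*, *Stmn2*, *Dcx*, *Elavl3*, *Gap43* and *Mapt*, summed as N) had to outnumber those of 7 progenitor genes (*Sox2*, *Hes1*, *Hes5*, *Vim*, *Nes*, *Fabp7* and *Slc1a3*, summed as A). *Gad1* and *Gad2* together had to reach 2 UMIs and *Tbr1* had to have 0. This left 181 GABAergic neurons among 1809 cells with N over A, in a library of 5827 barcodes of which 5649 passed the mitochondrial limit. The other 1628 cells with N over A were the cells they were compared with.

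The explants were pooled from 8 *PGKCre;Rosa26YFP* embryos at E11.5, in which Cre is driven by a ubiquitous promoter, and 4 *Dbx1Cre;Rosa26tdTomato* embryos at E12.5, in which tdTomato marks cells whose lineage has used *Dbx1*. Each of these groups came from 2 litters, and the labels give the strain of the pool as C57BL/6J and its genotype as wild-type. A second library, from whole telencephalic vesicles of 3 wild-type embryos from 2 litters, labelled E12 and given by the study's methods as E11.5 to E12, held 771 GABAergic neurons by the same rule among 2580 cells with N over A and was not used to rank genes. Each condition was thus 1 library in which embryos cannot be told apart, so that no test was possible between samples, and every interval below covers counting error only.

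GABA is made from glutamate by the decarboxylases encoded by *Gad1* and *Gad2*, and is loaded into synaptic vesicles by the transporter encoded by *Slc32a1*. In the embryonic telencephalon, neurons that use it arise in the subpallium, below the cortex, from precursors that express Dlx homeodomain factors. The septum lies at the rostral midline, where signalling by fibroblast growth factors and expression of *Zic* genes are known features, and its neurons come from pallial as well as subpallial sources.

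Depth was similar in the cells compared. GABAergic neurons had a median of 10803 UMIs, from 5373 to 32351, and 3412 genes with a UMI, while the other cells with N over A had medians of 11178 UMIs and 3414 genes. The 181 cells held 2172113 UMIs in all and the 1628 others 19914329. In the telencephalic vesicle the medians were 7353 and 7110 UMIs. The libraries shared 1 barcode.

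The values that chose the cells are given as a description only. N ran from 24 to 298 UMIs with a median of 106, A from 0 to 117 with a median of 9, and *Gad1* plus *Gad2* from 2 to 22 with a median of 6. *Gad2*, with 96.7% of cells, was detected more widely than *Gad1*, with 81.2%. At the threshold itself, 19 of the cells had exactly 2 *Gad* UMIs and 19 had exactly 3. Just outside it were 50 cells with 1 *Gad* UMI and no *Tbr1*. Of these, 30 held at least 4 UMIs of *Dlx1*, *Dlx2*, *Dlx5* and *Dlx6* together, as did 15 of the 19 cells at 2 *Gad* UMIs and each of the 143 cells at 4 or more. Few cells lay near the limit of N over A, with 2 chosen cells in which N exceeded A by at most 10 UMIs and 3 just outside. In all, 14 cells passed both the *Gad* and *Tbr1* steps but not N over A, and 0 of them held 4 such UMIs.

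The label of GABAergic neurons was checked against *Dlx5* and *Dlx6*, which the choice did not use. *Dlx5* was found in 97.2% of the cells, with a median of 8 and a highest count of 25 UMIs per cell, and *Dlx6* in 33.7%. At least 4 UMIs of the 4 *Dlx* genes were present in 176 of the 181 cells (97.2%). Among the others, the same was true of 16 of the 1042 cells with *Tbr1* and fewer than 2 *Gad* UMIs (1.54%), called cells with *Tbr1* below. *Tbr1* encodes a factor of glutamatergic pallial neurons. At least 4 *Dlx* UMIs were also present in 1 of the 75 cells with *Slc17a6* but no *Tbr1*, and in 136 of the 497 cells with neither (27.4%). The last class also had a lower median N, with 38 UMIs against 106. Another 14 cells with N over A carried both *Tbr1* and at least 2 *Gad* UMIs, and 13 of these held at least 4 *Dlx* UMIs. The set described here is therefore narrower than the set of *Dlx*-rich cells in the explants.

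Genes were compared as CPM, the UMIs of a gene in the summed cells per 1000000 of their UMIs, and the ratio of CPM in GABAergic neurons to CPM in the other cells was formed where both together held at least 50 UMIs. Of 11119 such genes, 279 were at least 2-fold higher in GABAergic neurons (2.51%) and 909 at least 2-fold lower (8.18%), with a median ratio of 1.02. These shares and this median are the background for each gene list described below. The minimum was set on the sum, and the other cells held most of the UMIs. A gene found only in GABAergic neurons thus needed a higher CPM to be measured, so that the 2 shares are not on equal terms. The counting interval of the ratio lay wholly above 2 for 120 genes and wholly below 0.5 for 287. In the telencephalic vesicle, the same ratio was at least 2-fold higher for 342 of 12548 genes (2.73%) and at least 2-fold lower for 572 (4.56%).

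**Figure D1:**
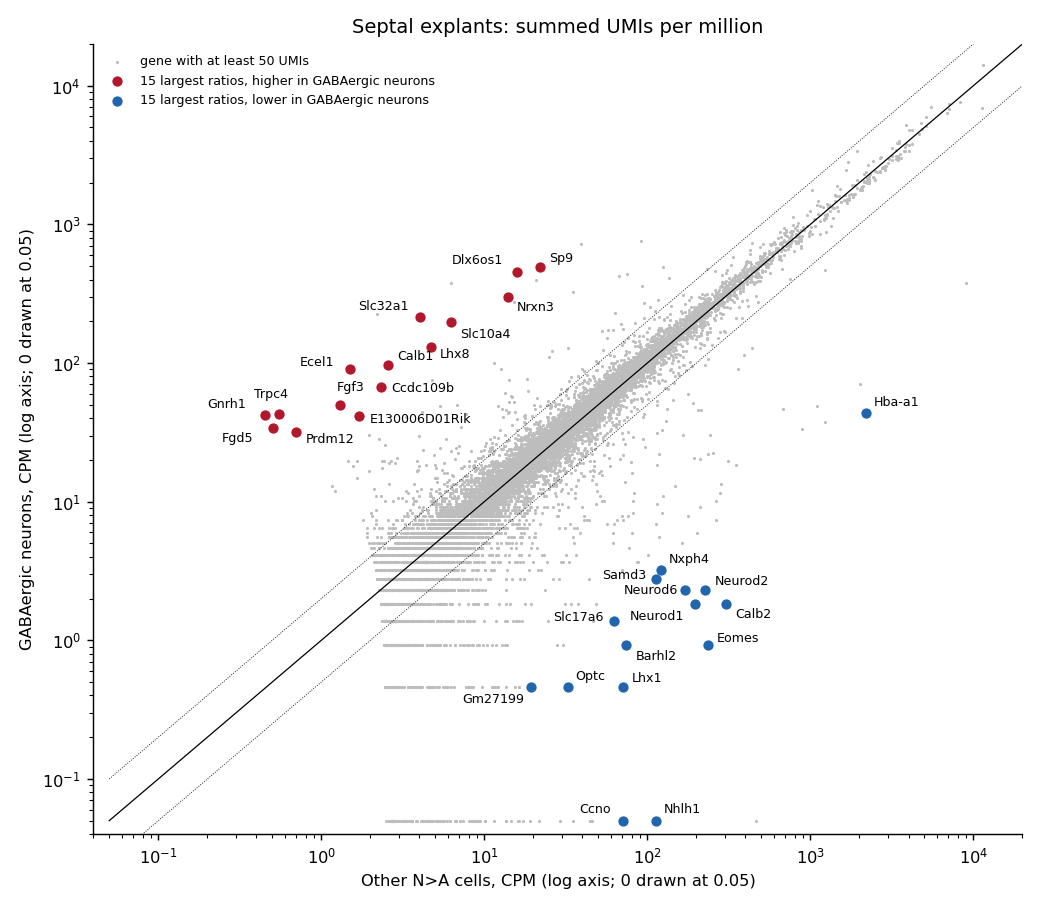
Level of each gene in the 181 GABAergic neurons (vertical axis) against the 1628 other cells with N over A (horizontal axis), in CPM on log axes, for 11119 genes with at least 50 UMIs. Coloured points are the 15 genes with the largest ratio on each side, the solid line marks equal levels and the dotted lines a ratio of 2 and 0.5. *Sp9* and *Dlx6os1* lie highest among the red points, and *Ccno* and *Nhlh1* had no UMI in GABAergic neurons.

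Genes of GABA storage and breakdown were higher in GABAergic neurons. Apart from the genes of the rule, 3 of the list reached 50 UMIs and each was at least 2-fold higher, with a median ratio of 7.54. *Slc32a1* was at 215.5 CPM in GABAergic neurons and 4.02 in the others, a ratio of 53.6 (interval 42.2 to 68.9). It was found in 140 of the 181 cells (77.3%) and in 39 of the 1628 others. *Abat*, which encodes the enzyme that breaks GABA down, had a ratio of 7.54 (interval 5.35 to 10.6). *Slc6a11*, a transporter known mainly from glia, had 1 UMI in the 181 cells.

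Factors of the subpallial lineage followed the same pattern. Of 12 genes measured in a list of *Dlx* genes and subpallial neuron factors, 9 were at least 2-fold higher and 1 was lower, with a median ratio of 8.80 against 1.02 over all genes tested. The antisense transcript *Dlx6os1* led the *Dlx* loci with a ratio of 28.8 (interval 25.3 to 32.7), ahead of *Dlx5* with 18.3 (interval 16.83 to 20.02), *Dlx6* with 10.7, *Dlx2* with 8.30 and *Dlx1* with 6.35. *Dlx6* and *Dlx6os1* overlap on opposite strands of chromosome 6. Reads of the septal library were counted with the defaults of Cell Ranger, which count a read for a gene only in its sense direction. *Sp9*, a zinc finger factor of developing subpallial neurons, was found in 93.4% of cells with a median of 5 UMIs (ratio 22.4). *Sp8*, the paralog of *Sp9*, had a ratio of 4.66, and *Prdm12*, with 69 UMIs in 46 cells, one of 45.2.

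*Gsx2*, a factor known from subpallial precursors, did not reach 2-fold, with 27.2 CPM in GABAergic neurons and 19.2 in the others. The gene that was lower on this list was *Etv1*, with 12.9 against 147.3 CPM.

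The other cells were not uniform in these genes. In cells with neither *Tbr1* nor *Slc17a6*, *Dlx2* reached 279.2 CPM and *Dlx5* 106.4, while in cells with *Tbr1* they were at 13.6 and 5.60 CPM. When other cells with any *Gad* UMI were left out, the ratio of *Slc32a1* rose to 238.0, that of *Sp9* to 61.7 and that of *Dlx6os1* to 73.8.

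**Figure D2:**
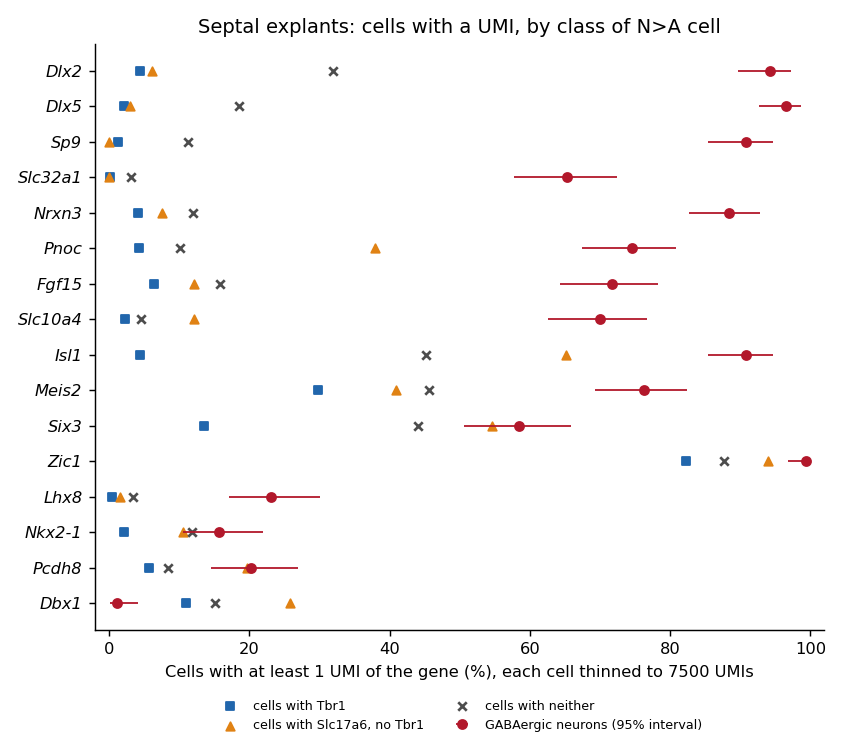
Percentage of cells with at least 1 UMI of each gene after each cell was thinned to 7500 UMIs, for 173 GABAergic neurons (red, with exact 95% intervals) and for 3 classes of other cells with N over A. *Dlx5*, *Sp9* and *Slc32a1* separated the classes widely, while *Zic1* was found in most cells of every class.

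Shares of cells were also compared at equal depth. Each cell was thinned to 7500 UMIs, which left out 8 GABAergic neurons and 142 others. *Dlx5* was then found in 96.5% of GABAergic neurons and 2.12% of cells with *Tbr1* and fewer than 2 *Gad* UMIs. For *Sp9* the shares were 90.8% and 1.21%, and for *Slc32a1* 65.3% and 0.202%. Cells with *Tbr1* are not known to use these genes. Their shares, at the same 7500 UMIs, were taken as the reference for free RNA in the droplets. This class left out the 14 cells with *Tbr1* and at least 2 *Gad* UMIs, so its low shares were in part fixed by that choice. In those 14 cells *Dlx5* was found in 92.9%, *Sp9* in 78.6% and *Slc32a1* in 85.7%. *Pnoc* was found in 74.6% of GABAergic neurons and 4.24% of cells with *Tbr1*. It was also found in 37.9% of cells with *Slc17a6* but no *Tbr1*.

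The 250 bases before the annotated start are shown for *Dlx6os1*, which had the highest ratio among the *Dlx* loci and was the only one of 12 ranked genes with the homeodomain core TAATTA in its promoter window, and for *Isl1*, the most widely detected striatal factor in these cells. They were read from RefSeq (GRCm38.p6), lie at chr6:6869534-6869783 and chr13:116309689-116309938, and are on the minus strand in both cases. Capitals mark TAATTA or CAGCTG, an E-box, and each of these reads the same on both strands.
Dlx6os1: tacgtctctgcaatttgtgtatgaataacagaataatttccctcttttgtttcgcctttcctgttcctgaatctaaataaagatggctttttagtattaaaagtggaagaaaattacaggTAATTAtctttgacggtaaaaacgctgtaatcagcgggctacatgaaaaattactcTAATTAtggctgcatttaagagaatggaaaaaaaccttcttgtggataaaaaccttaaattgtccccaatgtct
Isl1: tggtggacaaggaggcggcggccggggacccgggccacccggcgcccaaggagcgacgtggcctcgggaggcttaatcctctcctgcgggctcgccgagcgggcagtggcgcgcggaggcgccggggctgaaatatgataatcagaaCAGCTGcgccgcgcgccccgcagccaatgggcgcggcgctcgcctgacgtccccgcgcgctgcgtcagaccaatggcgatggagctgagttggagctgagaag
In windows from 250 bases before to 50 after the start, TAATTA was found in 1436 of 27025 genes (5.31%) and in 1 of the 12 ranked genes higher in GABAergic neurons that had a window. CAGCTG was found in 16.1% of all windows and in 4 of the 12, namely *Dlx6os1*, *E130006D01Rik*, *Slc10a4* and *Trpc4*. These are matches of letters and do not mark sites of binding.

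The 15 genes with the largest ratios, taken among those whose interval lay above 2, held genes of several kinds. Beside *Slc32a1* and the factors above were the cation channel gene *Trpc4* (ratio 77.5, interval 41.4 to 160.6), the guanine nucleotide exchange factor gene *Fgd5* (67.8, interval 34.9 to 147.3) and the endopeptidase gene *Ecel1* (59.9, interval 40.65 to 91.2). Each was found in a minority of cells, with 53, 50 and 64 of the 181. *Calb1*, which encodes a calcium-binding protein, was found in 50 cells, 5 of which held 34.4% of its 209 UMIs. *Slc10a4*, a gene of synaptic vesicles, and *Nrxn3*, which encodes a presynaptic adhesion protein, were broader, with 74.6% and 90.6% of cells and ratios of 31.6 and 21.6. *Ccdc109b*, an older name of a mitochondrial calcium channel subunit, and the transcript *E130006D01Rik* had ratios of 29.1 and 24.3.

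*Gnrh1*, which encodes gonadotropin-releasing hormone, had the largest ratio, 93.7 (interval 47.3 to 211.4), but rested on few cells. Its 92 UMIs lay in 22 of the 181 cells (12.2%), and 1 cell alone held 33 of them. Without that cell the ratio was 60.1. In the telencephalic vesicle *Gnrh1* had only 20 UMIs, too few for the minimum of 50.

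Ligands of the fibroblast growth factor family divided. *Fgf15* was at 398.7 CPM in GABAergic neurons (interval 372.6 to 426.2) and 20.7 in the other cells with N over A, and was found in 137 cells (75.7%) with a median of 3 and a highest count of 27 UMIs. *Fgf15* is better known from progenitors, and in the cells of the explants with N not over A it was at 107.8 CPM. *Fgf3* was found in 56 cells (30.9%), at 49.7 CPM against 1.31 in the others. *Fgf8*, with 13.4 against 26.9 CPM, and *Fgf17*, with 27.6 against 44.9, were not higher in GABAergic neurons. Of the 56 cells with *Fgf3*, 54 also held *Fgf15*, where the product of both shares gave 42.4. *Fgf15*, *Fgf8* and *Fgf17* here and *Pnoc*, *Th* and *Slc18a2* below were named after their values were seen, as were most list members other than those with the largest ratio on either side of a list.

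Genes of other transmitters were found in part of the cells. *Pnoc*, which encodes the precursor of the peptide nociceptin, was found in 149 cells (82.3%) at a ratio of 18.4 (interval 16.0 to 21.2). *Slc18a2*, the vesicular monoamine transporter, was found in 60 cells with a ratio of 12.4, and *Th*, the first enzyme of dopamine synthesis, in 32 cells with a ratio of 10.5. Both were found in 12 cells, where the product of their shares gave 10.6. Several peptide genes known from mature GABAergic neurons were not detectable at this depth. *Npy*, *Sst*, *Penk*, *Vip* and *Crh* had 0 UMIs in the 181 cells, and a count of 3 would have made up 1.38 CPM. These belong to a list of 12 peptide genes that holds neither *Pnoc* nor *Gnrh1*, the peptide genes with high ratios described above. Of the 12, 4 reached 50 UMIs, 0 of which were at least 2-fold higher and 2 lower, beside 2.51% and 8.18% of all genes (median ratio 0.302 against 1.02).

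Septal factors were shared with the other cells, and some were higher. Of 14 septal and rostral midline factors, all of which were measured, 5 were at least 2-fold higher and 2 lower, with a median ratio of 1.77. Among the 5 were *Fgf15*, *Six3* and *Nkx2-1*, and *Six3* and *Nkx2-1* are counted again in the striatal and ventral lists below. *Zic1* was found in 180 of the 181 cells with a median of 9 UMIs, but also in 89.5% of the others, and its ratio was 1.68 (interval 1.59 to 1.77). *Zic4* had a ratio of 1.43 and *Zic5* one of 1.69, so that none of these *Zic* genes reached 2-fold. Factors of hypothalamic, diencephalic and other regions outside the telencephalon summed to 18.9 CPM in GABAergic neurons, with *Tcf7l2* the most abundant there, and to 92.1 in the others. Most of the latter sum was *Lhx1*, which is also counted with the Cajal-Retzius genes below. *Lhx1* was at 71.05 CPM in the others and 0.460 in GABAergic neurons. Of 16 such genes, 9 had no UMI in the 181 cells and 4 reached 50 UMIs, of which 0 were higher and 1 was lower (median ratio 0.525), too few to set against the 2.51% and 8.18% of all genes.

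Among striatal projection neuron factors, 4 of 14 measured genes were at least 2-fold higher and 5 lower, with a median ratio of 0.676. The higher genes were *Meis2* (ratio 5.84, interval 5.38 to 6.34), *Isl1* (3.96, interval 3.68 to 4.25), *Meis1* (3.12) and *Six3* (2.69). *Isl1*, a LIM homeodomain factor, was found in 170 cells (93.9%) with a median of 5 and a highest count of 33 UMIs. It was not confined to GABAergic neurons, since the 75 cells with *Slc17a6* but no *Tbr1* held it at 729.2 CPM against 496.3. *Ebf1*, another factor of striatal neurons, had 11 UMIs in 10 cells (ratio 0.0309, interval 0.0154 to 0.0554), and *Foxp2*, *Bcl11b*, *Zfp503* and *Tshz1* were also at least 2-fold lower than in the other cells.

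Ventral and interneuron factors split as well, with 4 of 12 measured genes at least 2-fold higher, 5 lower and a median ratio of 0.743. *Lhx8*, a LIM homeodomain factor of ventral subpallial neurons, was found in 48 cells (26.5%) at a ratio of 27.7 (interval 21.9 to 35.4), and *Nkx2-1*, which patterns the ventral subpallium, in 33 cells at a ratio of 4.42. *Lhx6*, a factor of cortical interneurons that leave the ventral subpallium, had 6 UMIs in 6 cells, which is too few for the minimum of 50. *Sox6* and *Tox2* were higher, while *Maf*, *Nxph1*, *Cxcr4* and *Ackr3*, which take part in interneuron differentiation or migration, were among the lower genes, although the interval of *Maf*, with 2 UMIs, reached 1.20. Of 7 measured genes of caudally derived interneurons, *Sp8* and *Npas3* were higher and 4 were lower, *Nr2f1* with 2 UMIs and *Htr3a* with 0 among them (median ratio 0.466). Of 8 cholinergic genes, 7 had no UMI in these cells, *Chat* included, and the neurotrophin receptor gene *Ngfr* was the only one detected, with 47 UMIs and a ratio of 4.40. The 2 of these 8 that reached 50 UMIs, 1 higher and 1 lower, had a median ratio of 2.20.

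Genes of glutamatergic neurons were low throughout. Each of the 19 genes measured outside the rule was at least 2-fold lower, with a median ratio of 0.0297. *Slc17a6*, the vesicular glutamate transporter, had 3 UMIs, all in 1 of the 181 cells, and was found in 42.6% of the others. *Eomes* was at 0.921 against 236.2 CPM, *Neurod1* at 1.84 against 196.1 and *Neurod2* at 2.30 against 226.6. *Nhlh1* had 0 UMIs in GABAergic neurons and 2257 in the others, so that it was at least 82.1-fold lower when 3 counts were set in its place. Since *Tbr1* was required to be at 0, low values of genes that go with it were in part fixed by the choice of cells. Of 8 Cajal-Retzius genes, 7 were at least 2-fold lower, among them *Lhx1* with 1 UMI and *Trp73* with 0, and *Cacna2d2* had a ratio of 0.691, with a median of 0.0570. *Calb2*, which marks these early neurons, was at 1.84 against 304.0 CPM.

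Globin transcripts, which come from red blood cells, were also among the genes lower in GABAergic neurons. Of the markers of blood, vessels, microglia and mesenchyme, 9 of 22 were measured and 8 of these were lower, with the globin *Hbb-y* the most abundant and 7 of the 22 at 0 in GABAergic neurons. The list summed to 638.5 CPM in GABAergic neurons and 16759.2 in the others, with a median ratio of 0.0372. The ratio of *Hba-a1* was 0.0197, yet it was found in 40.9% of GABAergic neurons and 44.0% of the others. Of the other cells, 19 had at least 10% of their UMIs from globins and 0 of the GABAergic neurons did. Both groups had a median of 7 globin UMIs per cell. Without barcodes of that kind, a choice made after the data were seen, the ratio of *Hba-a1* was 0.887.

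Over all genes tested, 2.51% were at least 2-fold higher and 8.18% lower, and the precursor and maturation lists are given beside these shares. Of 18 precursor and cell cycle exit genes, 17 were between the limits (median ratio 0.7205 over the list) and 1, the antiproliferative gene *Btg2*, was lower (ratio 0.254, interval 0.219 to 0.292). *Mki67* and *Top2a*, expressed in cycling cells, were found in 13.8% and 24.3% of GABAergic neurons. Of 14 maturation genes outside the rule, 2 were higher, namely *Nrxn3* and the RNA-binding protein gene *Celf4* (ratio 3.04, interval 2.81 to 3.28), and *Rbfox3*, which encodes NeuN, was lower with 6.91 against 62.5 CPM, with a median ratio of 1.09 over the list.

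Of 26 subunits of GABA and glutamate receptors, 10 reached 50 UMIs, 1 was higher (*Grin2b*, ratio 3.06) and 3 were lower, with a median ratio of 0.796. The kainate receptor gene *Grik3* had 28 UMIs in GABAergic neurons and 10 in all other cells (ratio 25.7, interval 12.1 to 59.2), below the minimum of 50. Of 25 measured guidance and migration genes outside the rule, 2 were higher and 6 lower, with a median ratio of 0.734. For these lists, as for the septal, striatal, ventral and cadherin lists, the shares over all genes tested were 2.51% higher and 8.18% lower, with a median ratio of 1.02. *Efnb3*, an ephrin ligand, was found in 75.7% of cells (ratio 2.78), and *Nrp2*, a semaphorin receptor, in 34.8% (ratio 2.17). *Epha3* had 2 UMIs and *Plxna4* 0.

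Of 15 measured cadherins and delta-protocadherins, 2 were higher and 5 lower, with a median ratio of 0.727. *Pcdh8*, the homophilic adhesion gene the study is about, was found in 52 of the 181 cells (28.7%) and in 173 of the 1628 others (10.6%). Its level was 48.8 CPM (interval 40.0 to 59.0) against 12.2 CPM (interval 10.7 to 13.8), a ratio of 3.999. At 7500 UMIs per cell the share was 20.2% in GABAergic neurons, 5.66% in cells with *Tbr1* and 19.7% in cells with *Slc17a6* but no *Tbr1*. *Pcdh1*, a related gene, had a ratio of 5.89, and *Cdh2*, which encodes N-cadherin, was level with 145.9 against 139.3 CPM. *Dbx1* had 9 UMIs in 5 cells (ratio 0.113), and *Nr4a2* 5 UMIs in 5 cells.

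**Figure D3:**
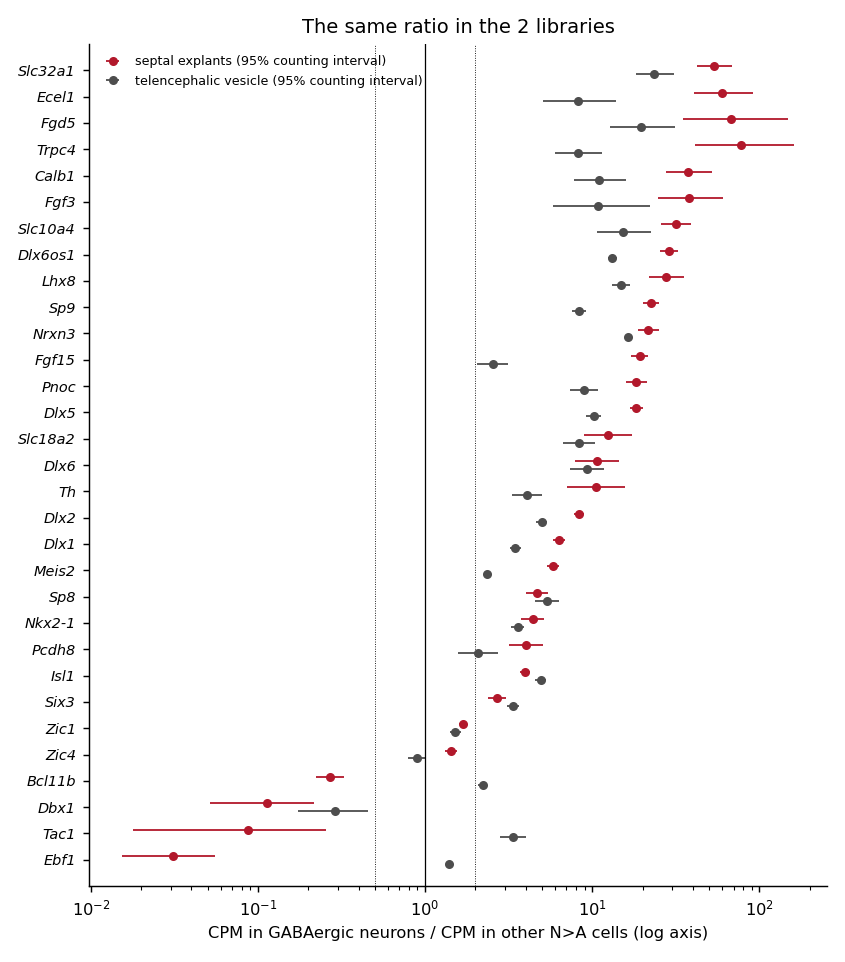
Ratio of CPM in GABAergic neurons to CPM in other cells with N over A, on a log axis, for the septal explants (red) and the telencephalic vesicle (grey), with 95% counting intervals. The solid line marks 1 and the dotted lines 0.5 and 2. The points of *Bcl11b*, *Tac1*, *Ebf1* and *Zic4* lie on opposite sides of 1 in the libraries, and those of the other genes drawn on the same side.

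The same ratio was then formed in the telencephalic vesicle, in cells not used to rank the genes. These cells were chosen by the same rule, so that a like direction of genes that go with *Gad* or *Tbr1* was in part fixed. Levels were not compared between the libraries, which were made with different kits and versions of Cell Ranger, and ratios within each are set side by side. Of 260 genes at least 2-fold higher in septal GABAergic neurons and measured in both libraries, 106 were so in the vesicle as well (40.8%). The share over all genes measured in the vesicle, whether or not in the septal explants, was 2.73%. Of the 260 genes, 2 were at least 2-fold lower in the vesicle. Of 779 lower genes, 323 were lower there too (41.5%, against 4.56%) and 10 were higher. *Slc32a1* had a ratio of 23.5 in the vesicle (interval 18.1 to 30.8), *Nrxn3* 16.2, *Slc10a4* 15.3, *Lhx8* 14.8 and *Dlx5* 10.2.

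Some ratios were smaller in the vesicle. *Fgf15* had a ratio of 2.54 there (interval 2.06 to 3.14) against 19.2 in the septal explants, and was found in 12.8% of the 771 GABAergic neurons. *Trpc4* and *Ecel1* both had ratios of 8.24 and *Pcdh8* one of 2.07 (interval 1.58 to 2.73). *Zic2* and *Zic5* were at 0.595 and 0.589 in the vesicle and at 1.93 and 1.69 in the explants. *Ebf1* had a ratio of 1.39 in the vesicle against 0.0309, and *Lhx6* one of 22.1. These differences between libraries were not tested, and the other cells with N over A are not of the same makeup in both tissues.

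The GABAergic neurons were then divided by gates on regional factors. At least 2 UMIs of *Isl1* and *Ebf1* together were found in 161 of the 181 cells (89.0%, interval 83.45 to 93.1%), and at least 2 UMIs of *Nkx2-1*, *Lhx6* and *Lhx8* together in 37 (20.4%, interval 14.8 to 27.1%). Of these 37 cells, 34 also lay in the first gate, and 17 cells lay in neither. *Lhx8* and *Nkx2-1* were found together in 27 cells, where the product of their shares gave 8.75, whereas *Lhx8* and *Isl1* were together in 46 where it gave 45.1. After thinning to 7500 UMIs, the *Isl1* gate held 77.5% of cells and the *Lhx8* and *Nkx2-1* gate 16.2%. In the vesicle the gates held 47.7% and 45.3% of the 771 cells. When cells of both libraries were thinned to 4500 UMIs, the *Isl1* gate held 58.6% of septal (interval 51.0 to 65.8%) and 35.7% of vesicle GABAergic neurons (interval 32.2 to 39.3%), and the *Lhx8* and *Nkx2-1* gate 15.5% (interval 10.5 to 21.6%) and 40.2% (interval 36.6 to 43.8%). The difference between the tissues was not tested, since each was 1 library, and tissue, kit and Cell Ranger version cannot be told apart.

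**Figure D4:**
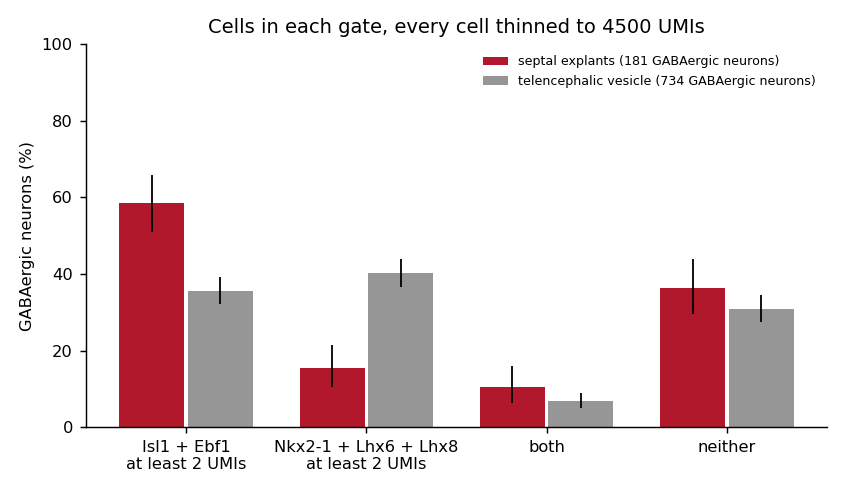
Percentage of GABAergic neurons in each gate after every cell was thinned to 4500 UMIs, for 181 cells of the septal explants (red) and 734 of the telencephalic vesicle (grey), with exact 95% intervals. The *Isl1* and *Ebf1* gate held 58.6% of septal and 35.7% of vesicle cells, and the *Nkx2-1*, *Lhx6* and *Lhx8* gate 15.5% and 40.2%, with 1 library each and no test of the difference.

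Cells inside the *Nkx2-1*, *Lhx6* and *Lhx8* gate, whose own genes are no finding, were compared with the rest of the GABAergic neurons. Of 5365 genes with at least 50 UMIs in both sets of cells together, 36 were at least 2-fold higher inside it (0.671%) and 109 lower (2.03%). The 10 genes with the largest ratio on each side whose interval excluded 1 were ranked, a rule set after the data were seen. *Mbip* led the higher side with 219.7 against 59.6 CPM (ratio 3.69, interval 2.75 to 4.93), and was found in 89.2% of cells inside the gate and 47.9% of the rest. *Lmo1*, a LIM-only transcriptional cofactor, followed with a ratio of 3.63, and the transcription factor genes *Zbtb20* and *Sox5* with 2.64 and 2.52. On the lower side were *Pax6*, a homeodomain factor, with 39.1 against 202.6 CPM, the ephrin receptor gene *Epha5* with 9.76 against 51.1, and *Trpc4* with 12.2 against 49.9. *Meis2* was at 144.0 CPM inside the gate and 505.0 outside (ratio 0.285, interval 0.215 to 0.371). *Isl1* did not differ beyond its counting interval, with 471.1 CPM inside (interval 407.0 to 542.5) and 502.1 outside (interval 469.6 to 536.3). The same was true of *Fgf15*, with a ratio of 1.097, *Slc32a1*, with 0.914, and *Zic1*, with 1.04. Cells in the gate had a median of 9226 UMIs.

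The cells were also placed in order by log2((N + 1)/(A + 1)), which rises as neuronal genes replace progenitor genes, and divided into groups of 61, 60 and 60 cells with medians of 9746, 10987 and 11413 UMIs. Of 4281 genes with 50 UMIs in the first and the third group together, 146 were at least 2-fold higher in the third (3.41%) and 173 lower (4.04%). The 10 genes with the lowest ratios, also ranked by a rule set after the data were seen, were *Pbk*, *Plk1*, *Tpx2*, *Cdca8*, *Ckap2l*, *Gsx2*, *Cenpe*, *Cenpf*, *Cenpa* and *Spc25*. *Plk1* encodes a mitotic kinase, and *Cenpa*, *Cenpe* and *Cenpf* encode centromere or kinetochore proteins. *Top2a*, expressed in cycling cells and not among these 10, was at 184.2 CPM in the first group, 18.8 in the second and 12.6 in the third. The precursor factor *Gsx2* was at 62.7, 13.0 and 2.81 CPM.

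**Figure D5:**
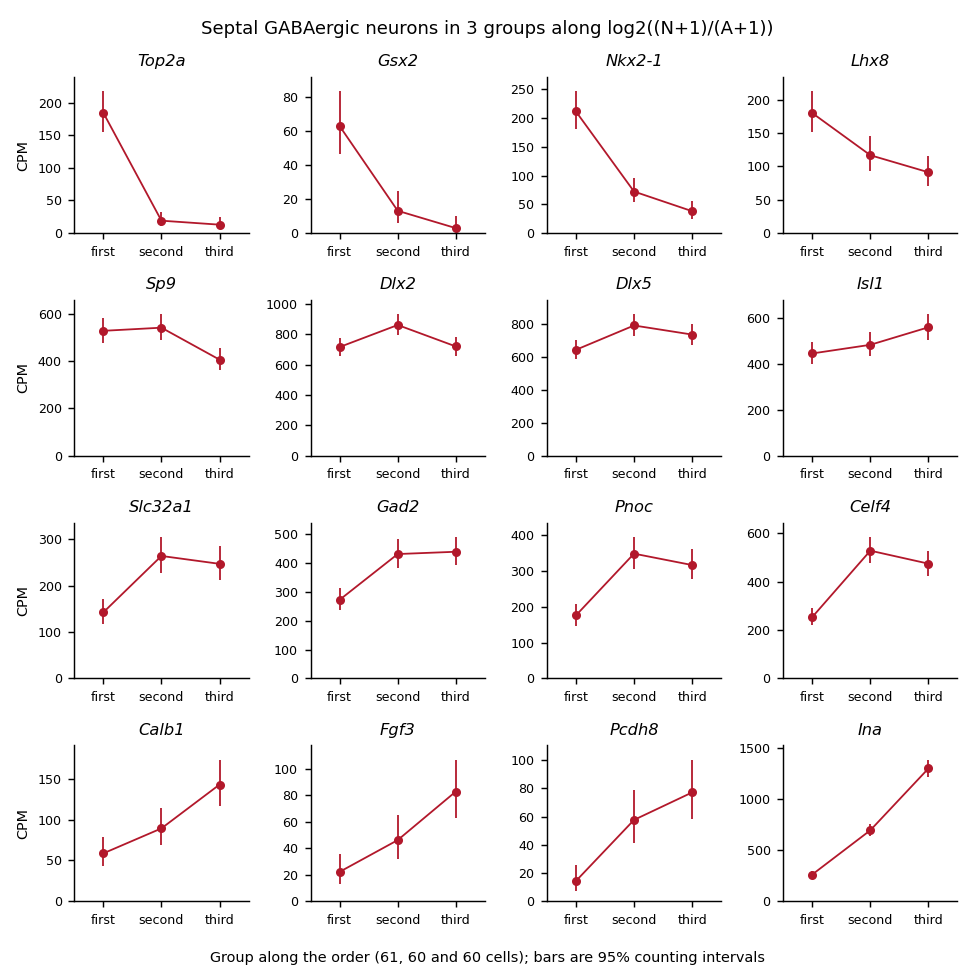
Level of 16 genes in CPM, on linear axes from 0, in the first, the second and the third group of septal GABAergic neurons along log2((N + 1)/(A + 1)), with exact 95% counting intervals. *Top2a*, *Gsx2* and *Nkx2-1* drop after the first group, *Dlx2* is at like levels in the first and the third, and *Fgf3*, *Pcdh8* and *Ina* are highest in the third.

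The genes of N and A set this order and are no finding. Values of genes that go with them, such as the mitotic genes above and *Ina* below, were in part fixed by it. *Dlx* genes were present from the first group on. *Dlx2* was at 715.7 CPM in the first and 719.6 in the third group (ratio 1.01, interval 0.890 to 1.14), while *Dlx1* and *Dlx5* were somewhat higher in the third, with ratios of 1.37 (interval 1.16 to 1.62) and 1.14 (interval 1.01 to 1.30). *Slc32a1* was at 142.4, 263.9 and 246.9 CPM in turn, so that its level in the second and the third group lay above that in the first beyond the counting intervals. *Pnoc*, at 176.3, 348.9 and 317.0 CPM, and *Celf4*, at 253.4, 527.7 and 474.1, had the same shape. *Sp9* was lower in the third group (ratio 0.769, interval 0.659 to 0.896). *Lhx8* was at 180.2, 116.8 and 91.2 CPM and *Nkx2-1* at 211.6, 72.1 and 37.9, while *Isl1* was at 446.7, 484.5 and 561.1.

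Genes highest in the third group included the neuronal intermediate filament gene *Ina*, at 261.2, 693.6 and 1297.5 CPM, *Ecel1* (ratio 4.67, interval 3.03 to 7.45), *Fgf3* (3.73, interval 2.14 to 6.82) and *Calb1* (2.43, interval 1.70 to 3.54). *Pcdh8* was at 14.4, 57.7 and 77.15 CPM (ratio 5.37, interval 2.78 to 11.4), with 8 of 61 cells in the first group and 25 of 60 in the third. Both of the largest ratios drew much of their count from 1 cell. Of the 59 UMIs of *Crabp1* in the third group, 55 lay in 1 cell, and 1 cell held 45 of the 92 UMIs of *Nefl*.

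Reporter transcripts were counted in the same cells. YFP, taken as present from 3 UMIs, was found in 112 of the 181 GABAergic neurons (61.9%, interval 54.4 to 69.0%), in 52.9% of the other cells with N over A (interval 50.5 to 55.4%) and in 58.6% of cells with N not over A. tdTomato, from 1 UMI, was found in 6 GABAergic neurons (3.31%, interval 1.23 to 7.075%) and in 164 of the 1628 others (10.1%, interval 8.65 to 11.6%). It was found in 6.38% of the 3840 cells with N not over A (interval 5.628 to 7.2%). These shares are over cells of both kinds of embryo, and those at E11.5 carried no tdTomato. Of the 6 GABAergic neurons, 2 had 4 tdTomato UMIs and 4 had 1, a count at which expression and free RNA cannot be told apart. Among the 6 cells 0 had a *Dbx1* UMI, 1 also had a YFP UMI, and 5 had *Isl1*. UMIs of both reporters, which were carried by different embryos, were also found in 41 of the 1628 others (2.52%). Medians were 10803 UMIs in GABAergic neurons, 11178 in the others and 14002 in cells with N not over A.

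GABAergic neurons with at least 3 YFP UMIs (112 cells, median 10963 UMIs) were set beside the 45 without any (median 10803 UMIs). *Dlx2* had a ratio of 1.03 (interval 0.916 to 1.16), *Isl1* 0.874 and *Slc32a1* 0.955. *Ecel1* was lower with YFP, at 70.1 against 145.5 CPM (ratio 0.482, interval 0.353 to 0.659), and *Fgf15* at 371.5 against 492.0 (0.755, interval 0.649 to 0.881). *Lhx8* was higher, at 144.5 against 86.1 CPM (1.68, interval 1.21 to 2.37). Cells without YFP can be of E12.5 embryos or cells in which YFP was missed, and age and genotype cannot be told apart here.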

How the data were processed

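The data analysed were 2 droplet single cell libraries of 10x Genomics, of septal explants (3′ kit v2) and of telencephalic vesicles (3′ kit v3.1). The authors deposited raw UMI counts per gene and barcode, made with Cell Ranger 2.1.1 (septal explants) and 7.1.0 (vesicle) per the labels, on mm10, to which YFP and tdTomato were added for the septal explants. Default parameters were used for the septal explants, so that reads were counted in the sense direction of a gene. The cells and gene lists were chosen with earlier results of these data known.

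UMIs were summed over cells, and the ratio of CPM had an exact conditional binomial 95% interval. Shares had Clopper-Pearson and levels Poisson 95% intervals, and for a count of 0 a count of 3 was used. With 1 library per condition no p-value was computed. PCR duplicates are collapsed by UMI, but all intervals cover counting error only. A test of the interval on simulated data is not reported here, and no statement rests on it. Named genes were the 15 with the largest ratios on each side among those with an interval wholly beyond 2-fold, the markers, *Dbx1*, *Pcdh8* and *Nr4a2*, and the list members with the largest ratio on either side of a list. Other names were chosen after their values were seen, and some genes of the lists are not reported here. Reporters, sex-linked genes and the genes of the rule were left out of the ranking. Cells were thinned to 7500 UMIs (septal explants) and 4500 (vesicle).

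Doublets were kept. Scrublet in scanpy 1.11.5 marked 5 of 5649 septal barcodes (0.0885%, against 4.52% expected) and 0 GABAergic neurons, so that its threshold did not work here, and an alternative chosen after seeing this left out the 255 barcodes with the highest scores, 13 GABAergic neurons among them. In the vesicle it marked 669 of 11414 barcodes (5.86%), of which 75 were GABAergic neurons and 158 other cells with N over A, and these were kept in the vesicle ratios and gate shares, which were not recomputed without them. Intervals were computed with scipy 1.17.1 and numpy 2.4.6 under Python 3.11.15, tables with pandas 2.3.3 and plots with matplotlib 3.10.9. Alternatives changed the mitochondrial limit, the thresholds of *Gad*, *Tbr1* and N over A, the comparison cells, the weighting of cells, the minimum of UMIs and the gates.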

Additional observations from a re-analysis of the deposited data

Results flagged for a closer look

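For *Bcl11b*, which encodes a zinc finger factor of striatal and cortical projection neurons, the ratio of GABAergic neurons to other cells with N over A pointed opposite ways in the libraries, with 0.271 in the septal explants (112 UMIs in the 181 cells) and 2.20 in the telencephalic vesicle. *Tac1*, the precursor gene of substance P, did the same, with 0.0870 in the septal explants (3 UMIs) and 3.36 in the vesicle. These were noted because each ratio passed 2-fold in opposite directions, and the difference was not tested. *Bcl11b* was at 250.9 CPM in septal cells with *Tbr1* and at 51.6 CPM in septal GABAergic neurons.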

How the results depend on the processing

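The number of genes called followed the minimum of UMIs. With 20 UMIs in place of 50, 426 genes were at least 2-fold higher in GABAergic neurons and 1424 lower, and with any gene that had a UMI in both groups 1065 were higher. The *Isl1* and *Ebf1* gate fell to 77.5% of cells when thinned, and with 1 UMI in place of 2 the gates held 93.9% and, for *Nkx2-1*, *Lhx6* and *Lhx8*, 30.4%. With 2 tdTomato UMIs the share was 1.105% of GABAergic neurons and 4.36% of the other cells with N over A. The number of GABAergic neurons ranged from 143, with 4 *Gad* UMIs required, to 231 with 1. Of 51 ratios of named genes, 0 changed direction under the alternatives run on them. Each stayed on its side of 2-fold, except *Nrp2*, which went from 2.17 to 1.79 with *Gad* at 1 UMI, and *Hba-a1*, which went to 0.887 without globin-rich barcodes. When other cells with *Gad* were left out, 10 of the 51 moved by over 1.5 times. With *Gad* at 1 UMI 5 moved that far, as did 5 with no criterion on *Tbr1*. With *Gad* at 4 UMIs the number was 3, in thinned cells also 3, and under each other alternative at most 1. No paired analysis was possible because each condition was 1 library. Depth limits what can be said of genes with few UMIs per cell, and the embryos and ages of the pool cannot be told apart.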

Other observations

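The next genes in the same ranking, from the 16th to the 30th largest ratio, were looked at after the data were seen. Beside *Fgf15*, *Pnoc*, *Dlx5*, *Slc18a2*, *Dlx6* and *Th* they held *Arl4d*, a small GTPase gene found in 49.7% of GABAergic neurons (ratio 15.7, interval 12.1 to 20.5), and *Lmo3*, a LIM-only cofactor gene found in 27.6% (ratio 15.5, interval 10.3 to 23.7). *Ass1*, which encodes an enzyme of arginine synthesis, was found in 22.1% of cells (ratio 11.9), and *Chrdl1*, an antagonist of bone morphogenetic proteins, in 20 cells (ratio 11.2). In the telencephalic vesicle their ratios were 13.5 for *Arl4d*, 3.60 for *Lmo3*, 3.01 for *Ass1* and 5.06 for *Chrdl1*. *Gm26793*, with 26 UMIs in the 181 cells and a ratio of 9.93, overlaps *Fgf15* on the opposite strand.

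*Pou3f4*, a POU domain factor outside the lists, was found in 51.4% of GABAergic neurons at a ratio of 7.16 (interval 5.91 to 8.66), and at 6.60 in the vesicle. *Pax6* was at 171.7 CPM in GABAergic neurons, 57.0 in the other cells with N over A and 161.9 in cells with N not over A, though the shares of cells with a UMI, 39.8% and 36.5%, were close for the first 2.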
